A study of Mus musculus with 8 samples.

Results

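Mouse alveolar macrophages that had received MSDC and then Poly(I:C) were compared with macrophages that had received vehicle only, to find which genes ended above, below or back at the vehicle level. The comparison used 4 of the 8 bulk RNA-seq libraries of the study, 2 a side, and covered 11621 of the 15521 genes in the table after a filter on low counts. The cells came from bronchoalveolar lavage, were purified by adherence for 2 h and were then cultured in medium with 10 ng/ml GM-CSF, the growth factor that supports this cell type, so every group had GM-CSF. The vehicle group received DMSO alone. The combined group received 10 µM MSDC for 2 h and then 5 µg/mL Poly(I:C) as well. The other 4 libraries, from cells given MSDC alone or Poly(I:C) with vehicle, entered the same model and are quoted beside the net result. The sample labels give 24 h for the stimulation, whereas the series description says overnight. Mouse strain, age and sex are not given, and nothing in the labels tells whether the replicates of a group came from different animals or culture wells. The p-values therefore reflect only how far these libraries differ, which may be technical. The libraries held 28762425 to 29493223 counts each.

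Poly(I:C) is a synthetic double-stranded RNA that stands in for viral RNA. Cells detect it through TLR3 in endosomes and through RIG-I and MDA5 in the cytosol, and these sensors turn on type I interferon, which in turn drives a large group of antiviral genes. MSDC is the prefix in the names of several compounds that target the mitochondrial pyruvate carrier, the protein pair through which pyruvate enters mitochondria, and no label says which compound it stands for. Alveolar macrophages clear surfactant lipid from the airspaces and depend on PPARγ, a nuclear receptor that fatty acids activate and that controls genes of lipid uptake, storage and oxidation.

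A gene was called above or below vehicle when the Benjamini-Hochberg adjusted p of edgeR's quasi-likelihood test was under 0.05. It was placed at the vehicle level when it was not called and the 95% interval of its fold change lay within 1.5-fold in either direction, which is 0.585 on the log2 scale. All other genes were undetermined. In bulk RNA, fewer cells of a type and less RNA per cell cannot be told apart. Above vehicle were 1764 genes (15.2% of those tested), 443 of them by at least 2-fold. Below vehicle were 1487 genes (12.8%), 323 of them by at least 2-fold. At the vehicle level were 6321 genes (54.4%). The remaining 2049 (17.6%) were undetermined, and their median level was 1.33 CPM (counts scaled to the size of the library), against 34.6 CPM for genes at the vehicle level. In either direction 28% of genes were called, and 54.3% of those calls were higher. That share was 42.7% with scaling by library totals, under which the median of all genes was -0.05 instead of 0.01 on the log2 scale. Replicates of the same group correlated at 0.9962 or more over log2 CPM, and libraries of different groups at 0.9837 or less. The plot of net change against level shows the 4 classes.

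**Figure D1:**
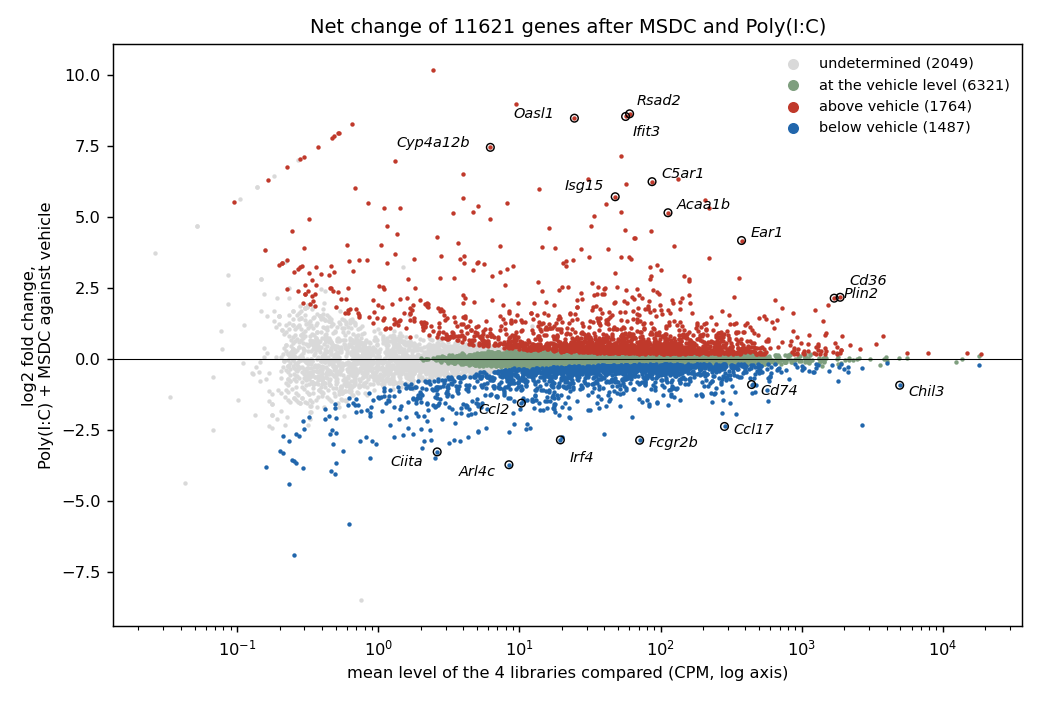
Each point is 1 of the 11621 genes tested, with the mean CPM of the 4 libraries compared on a log axis and the log2 fold change of both treatments over vehicle on the vertical axis. Red, blue, green and grey mark the 1764 genes above, 1487 below, 6321 at the vehicle level and 2049 undetermined, and fold changes of genes with 0 vehicle counts depend on the model's prior count. Antiviral genes and lipid genes share the upper right, and Fcgr2b, Ccl17 and Irf4 lie low.

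The genes that ended highest above vehicle were mostly antiviral genes known to respond to interferon. Among the 12 largest rises, taken at 5 CPM or more in the higher group and without overlap between the groups, 9 belong to interferon-induced families (Ifit3b, Rsad2, Ifit3, Oasl1, Ifit1, Ifi206, Usp18, Oasl2 and Ifit2), and the other 3 were Cyp4a12b, C5ar1 and Cyp4a12a. Rsad2 encodes viperin, which makes a chain-terminating nucleotide that blocks viral RNA synthesis. Its levels were 0.476 and 0.132 CPM in vehicle and 120.3 and 120.7 CPM after both treatments, a log2 fold change of 8.62 ± 0.23 (SE, adjusted p = 3.58e-13). The MSDC libraries had 0.0344 and 0.338 CPM and the Poly(I:C) libraries 105 and 127 CPM, so the combined level lay in the range of Poly(I:C) alone. Isg15, a ubiquitin-like modifier, had 2.31 and 1.29 CPM in vehicle and 82.5 and 105 CPM after both (log2 fold change 5.70 ± 0.19, adjusted p = 5.68e-12). Both combined libraries lay below the Poly(I:C) libraries, at 123 and 122 CPM. Ifit1, which binds viral RNA lacking the host cap methylation, went from 1.16 and 0.330 CPM to 108 and 99.2 CPM (log2 fold change 7.12 ± 0.25, adjusted p = 9.1e-12). Ifit3 went from 0.510 and 0.0991 CPM to 111 and 115 CPM, and stood at 169 and 195 CPM with Poly(I:C) alone. Ifit3b is nearly identical to Ifit3, so reads could be split between the pair. It had 2 counts over both vehicle libraries and 1079 over the combined ones, a ratio of 562 with a counting interval of 155 to 4640.

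All 30 tested members of a list of interferon-stimulated genes were above vehicle, by 1.64 to 8.62 on the log2 scale, where 15.2% of all genes were. Their median change was 3.98, or 3.51 with genes that had 0 vehicle counts set at their bound, beside 0.01 over all genes. The same members had a median of -0.76 after MSDC alone and 4.42 after Poly(I:C) alone, each against the same vehicle libraries. The MSDC libraries differed in some members, such as Rtp4 (2 and 46 counts) and Oas3 (18 and 100). In others they were close, such as Oas1a (410 and 458 counts) and Ifi204 (90 and 111). The part of this in the MSDC median was not tested. Irf7, the transcription factor that amplifies interferon production, went from 15.5 and 6.24 CPM to 407 and 456 CPM, and was at 943 and 939 CPM after Poly(I:C) alone. In 29 of the 30 genes the first vehicle library was higher than the second, with a median log2 ratio of 0.52, against 0.00 over all genes. All 30 were called whichever vehicle library was left out, with medians of 4.79 without the first and 3.58 without the second, before bounds. Apol9b, an apolipoprotein L family gene, had no vehicle count and was at least 96.8-fold higher after both treatments. By the same floor of 3 counts over the group, the GTPase Iigp1 was at least 19.4-fold and Ifi44 at least 11.8-fold higher. Of 6 interferon genes looked up, the deposited data gave 2, Ifnb1 and Ifna4, both at or near the limit of counting at harvest. Ifna4 had 0 counts in every library. Ifnb1, the gene of interferon β, had at most 3 counts in a library and was not tested. The cytokine gene Il6, with at most 4 counts, was not tested either.

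Promoter sequences of 7 of these genes are shown because interferon-driven factors are known to bind the interferon-stimulated response element, searched here as GAAA, any 2 bases and GAAA on either strand. Each line is 100 bases of the strand on which the gene is read, taken within 250 bases upstream of a start site in RefSeq GRCm38.p6, with matches in capitals (a match on the opposite strand reads as TTTC, any 2 bases and TTTC).
Isg15 (chr4:156200819-156200918, minus strand): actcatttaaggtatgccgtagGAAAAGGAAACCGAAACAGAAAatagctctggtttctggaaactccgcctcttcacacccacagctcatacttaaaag
Ifit1 (chr19:34640784-34640883, plus strand): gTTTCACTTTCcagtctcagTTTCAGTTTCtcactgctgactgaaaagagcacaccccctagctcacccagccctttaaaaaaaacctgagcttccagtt
Ifit3 (chr19:34583387-34583486, plus strand): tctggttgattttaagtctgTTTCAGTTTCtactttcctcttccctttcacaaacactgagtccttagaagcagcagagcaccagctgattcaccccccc
Ifit3b (chr19:34607783-34607882, plus strand): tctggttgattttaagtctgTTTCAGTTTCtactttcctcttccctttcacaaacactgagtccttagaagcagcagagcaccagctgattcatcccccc
Rsad2 (chr12:26456493-26456592, minus strand): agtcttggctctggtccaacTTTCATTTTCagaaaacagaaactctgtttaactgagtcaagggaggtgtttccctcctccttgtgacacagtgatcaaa
Irgm1 (chr11:48871421-48871520, minus strand): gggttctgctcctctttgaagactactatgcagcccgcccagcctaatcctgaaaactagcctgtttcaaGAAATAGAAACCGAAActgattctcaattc
Gbp3 (chr3:142559944-142560043, plus strand): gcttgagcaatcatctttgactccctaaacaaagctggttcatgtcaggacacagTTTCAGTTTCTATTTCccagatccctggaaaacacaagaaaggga

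Isg15 held 3 overlapping matches, Ifit1, Irgm1 and Gbp3 held 2 each, and the other windows 1. The windows of Ifit3 and Ifit3b were identical in 99 of 100 bases. Of the 9379 tested genes with a promoter in the table, 3.44% held the letters within 250 bases upstream, against 2.98% of all 32851 start sites. The share was 6.86% among genes above vehicle and 15% among those above by at least 2-fold. It was 2.81% among genes below vehicle and 2.62% among genes at the vehicle level. Among the interferon-stimulated genes with a promoter, 10 of 23 (43.5%) held them. A match describes the letters only and is not evidence of binding.

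Receptors and sensors of double-stranded RNA ended above vehicle as well. In a list of RNA-sensing genes 69.2% were above and 15.4% below, against 15.2% and 12.8% of all genes. Of 13 tested RNA-sensing genes 9 were above, 2 below and 2 at the vehicle level, with a median of 1.31, beside -0.42 after MSDC alone and 1.34 after Poly(I:C) alone. Ddx58, which encodes RIG-I, had 47.8 and 31.8 CPM in vehicle and 280 and 276 CPM after both (log2 fold change 2.81 ± 0.13, adjusted p = 1.41e-10). Ifih1, which encodes MDA5, had 35.7 and 29.1 CPM in vehicle and 132 and 136 CPM after both (2.05 ± 0.09). Zbp1, a sensor of Z-form nucleic acid, went from 17.4 and 16.9 CPM to 169 and 172 CPM (3.31 ± 0.07). Tlr3 itself went from 11.4 and 8.95 CPM to 26.9 and 27.6 CPM (1.42 ± 0.12, adjusted p = 2.05e-07). In these 4 genes the vehicle and combined libraries did not overlap, which held for 60.5% of all genes tested. The adaptors downstream did not rise, whereas the kinase genes Tbk1 and Ikbke of the same list did (0.59 and 0.36). Mavs, the adaptor of RIG-I and MDA5, and Irf3, the factor it activates, were at the vehicle level (-0.08 and -0.02). Ticam1, the adaptor of TLR3, fell by 0.49 ± 0.09 (adjusted p = 0.000366).

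GTPases that act on pathogen vacuoles, the guanylate-binding proteins and immunity-related GTPases, were above vehicle in 13 of 13 tested genes. Their median was 2.49, beside -0.77 after MSDC alone and 3.11 after Poly(I:C) alone. Irgm1 had 27.5 and 28.2 CPM in vehicle and 147 and 150 CPM after both (log2 fold change 2.42 ± 0.08, adjusted p = 2.43e-12), with 173 and 188 CPM after Poly(I:C) alone. Gbp3 had 6.86 and 5.18 CPM in vehicle and 31.4 and 33.4 CPM after both (2.43 ± 0.12), with 51.1 and 52.8 CPM after Poly(I:C) alone. These families hold closely related copies, so the counts of single members are uncertain. Without the first vehicle library 12 were called.

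Antigen presentation ended in opposite directions for its 2 classes. All 14 tested genes of MHC class I presentation, which shows cytosolic peptides to CD8+ T cells, were above vehicle, with a median of 0.99 beside -0.34 after MSDC alone and 1.41 after Poly(I:C) alone. Tap1, a subunit of the peptide transporter, had 42.2 and 39.5 CPM in vehicle and 125 and 130 CPM after both (log2 fold change 1.64 ± 0.07, adjusted p = 8.68e-11). The heavy chain gene H2-K1 went from 294 and 296 CPM to 595 and 608 CPM (1.03 ± 0.06). B2m, the shared light chain, went from 1523 and 1290 CPM to 2559 and 2315 CPM (0.79 ± 0.07). Of 9 tested genes of MHC class II presentation, which shows ingested antigen to CD4+ T cells, 8 were below vehicle and 1 was undetermined, where 12.8% of all genes were below. Their median was -0.90, beside -1.61 after MSDC alone and 0.31 after Poly(I:C) alone. Ciita, the master regulator of class II genes, had 5.27 and 4.23 CPM in vehicle and 0.313 and 0.664 CPM after both (-3.27 ± 0.36, adjusted p = 2.86e-06). H2-Ab1 had 60.7 and 61.3 CPM in vehicle, 37.6 and 31.8 CPM after both, 20.5 and 19.5 CPM after MSDC alone and 103 and 96.8 CPM after Poly(I:C) alone. Its combined level therefore lay between the levels of the single treatments and below vehicle (-0.81 ± 0.08, adjusted p = 1.59e-06). Cd74, the invariant chain, went from 572 and 578 CPM to 304 and 312 CPM (-0.90 ± 0.05). H2-DMa, which loads class II peptides, went from 208 and 195 CPM to 79.4 and 69.1 CPM (-1.44 ± 0.08).

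A second group of high risers consisted of lipid genes, most of which are known targets of PPAR receptors. Of 20 tested PPAR targets 19 were above vehicle and 1, Ucp2, was at the vehicle level. Their median was 1.88, beside 1.80 after MSDC alone and 0.05 after Poly(I:C) alone, and their rises ranged from 0.21 to 7.44. Plin2, the coat protein of lipid droplets, had 598 and 661 CPM in vehicle and 2706 and 2833 CPM after both (log2 fold change 2.14 ± 0.06, adjusted p = 7.12e-13). The MSDC libraries had 2818 and 2737 CPM and the Poly(I:C) libraries 711 and 710 CPM. Cd36, a fatty acid and lipoprotein receptor, went from 717 and 646 CPM to 2996 and 3131 CPM (2.17 ± 0.06). Cidec, which fuses lipid droplets, went from 9.34 and 10.6 CPM to 114 and 114 CPM (3.52 ± 0.08), and Angptl4, an inhibitor of lipoprotein lipase, went from 19.3 and 21.5 CPM to 182 and 178 CPM (3.14 ± 0.08). Acaa1b, a peroxisomal thiolase, had 6.79 and 5.65 CPM in vehicle, 210 and 230 CPM after both and 322 and 306 CPM after MSDC alone (5.14 ± 0.10, adjusted p = 1.5e-14). Acaa1b and Acaa1a are close copies, as are Cyp4a12a and Cyp4a12b, fatty acid hydroxylases that rose by 5.99 and 7.44. The receptor gene Pparg itself fell, from 170 and 182 CPM to 110 and 115 CPM (-0.64 ± 0.06, adjusted p = 1.15e-06).

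Genes of lipid storage and breakdown were mostly above vehicle. Of 12 tested lipid droplet and triglyceride genes 8 were above vehicle, 2 at the vehicle level and 2 undetermined. Dgat1, the last enzyme of triglyceride synthesis, went from 18.7 and 19.0 CPM to 75.0 and 77.8 CPM (log2 fold change 2.02 ± 0.08). Pnpla2, the lipase that opens triglyceride breakdown, went from 142 and 157 CPM to 346 and 351 CPM (1.22 ± 0.06). Of 19 tested genes of mitochondrial fatty acid oxidation 15 were above, 2 at the vehicle level, 1 undetermined and 1 below (Echs1, -0.36 ± 0.08), and the rises were 0.31 to 1.10. Cpt1a, the gate of fatty acid entry into mitochondria, went from 190 and 191 CPM to 320 and 320 CPM (0.75 ± 0.06, adjusted p = 1.13e-07). Of 16 peroxisomal genes 10 were above and 6 at the vehicle level. Above were 66.7% of the lipid droplet list, 78.9% of the mitochondrial list and 62.5% of the peroxisomal list, against 15.2% of all genes. Pex11a, a peroxisome division factor, went from 11.7 and 12.7 CPM to 65.8 and 69.9 CPM (2.47 ± 0.10).

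The pyruvate carrier, the known site of action of MSDC compounds, consists of the proteins Mpc1 and Mpc2. Mpc2 had 23.4 and 24.7 CPM in vehicle, 99.2 and 110 CPM after both, 91.2 and 103 CPM after MSDC alone and 28.1 and 25.4 CPM after Poly(I:C) alone (net log2 fold change 2.12 ± 0.09, adjusted p = 5.18e-11). Mpc1 changed less, from 180 and 176 CPM to 225 and 211 CPM (0.29 ± 0.06, adjusted p = 0.00282). Pdk4, the kinase that shuts pyruvate dehydrogenase, went from 0.408 and 0.363 CPM to 11 and 12.9 CPM (4.94 ± 0.27, adjusted p = 1.04e-09). The catalytic and core subunits of pyruvate dehydrogenase, Pdha1, Pdhb and Dlat, were at the vehicle level (0.00, 0.06 and -0.05). Of the 16 tested pyruvate-handling genes 6 were above, 8 at the vehicle level, 1 below and 1 undetermined. The share at the vehicle level, 50%, was close to the 54.4% of all genes. Above were 37.5% and below 6.25%, against 15.2% and 12.8% of all genes. Pdp1, the phosphatase opposing the kinases, was the 1 that fell (-0.60 ± 0.13).

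**Figure D2:**
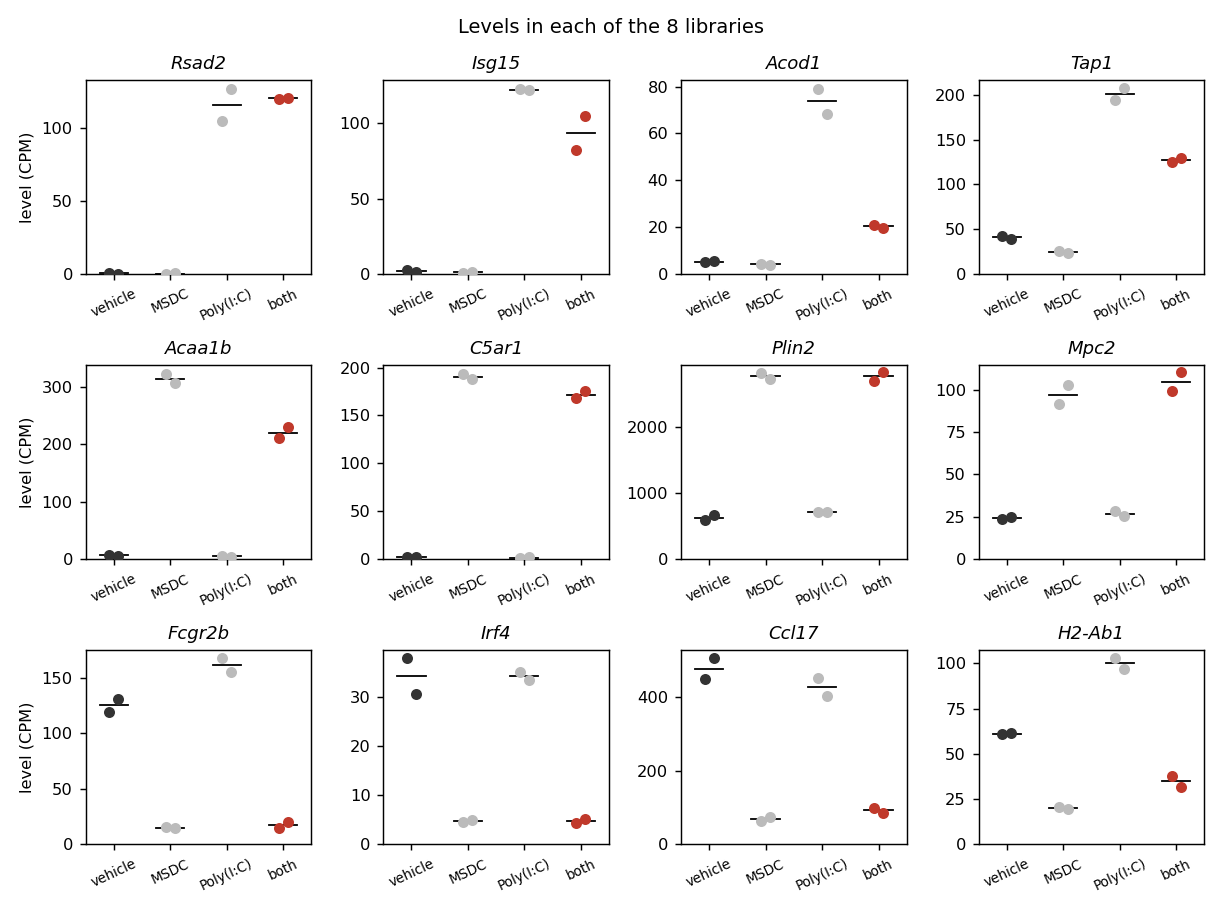
Levels in CPM of 12 genes in each of the 8 libraries, on linear axes that start at 0, with a bar at each group's mean and vehicle in black, both treatments in red and single treatments in grey. Rsad2, Isg15, Acod1 and Tap1 were high in the Poly(I:C) groups, the middle row was high in the MSDC groups, and Fcgr2b, Irf4 and Ccl17 were low in the MSDC groups, while H2-Ab1 after both lay below vehicle and above MSDC alone.

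Receptors for complement fragments and for IgG changed in both directions. Of 12 tested complement genes 4 were above, 2 below, 1 at the vehicle level and 5 undetermined. Above were 33.3%, against 15.2% of all genes, and the 16.7% below were close to the 12.8% of all genes. C5ar1 (chr7:16246743-16259540), the main receptor of the anaphylatoxin C5a, had 2.24 and 2.31 CPM in vehicle and 168 and 176 CPM after both (log2 fold change 6.24 ± 0.16, adjusted p = 2.21e-13). The MSDC libraries had 193 and 188 CPM and the Poly(I:C) libraries 0.900 and 2.32 CPM. C5ar2, the second C5a receptor, went from 0.985 and 1.02 CPM to 9.29 and 11 CPM (3.33 ± 0.20). C3ar1, the receptor of the anaphylatoxin C3a, fell from 20.9 and 15.0 CPM to 5.05 and 7.89 CPM (-1.47 ± 0.22, adjusted p = 1e-04). Cfb, a protease component of the alternative pathway, went from 242 and 252 CPM to 1035 and 1051 CPM (2.08 ± 0.06), whereas Cfp, which stabilizes that pathway's convertase, went from 244 and 262 CPM to 102 and 109 CPM (-1.26 ± 0.07). Fcgr2b (chr1:170960558-170976071), the inhibitory receptor for IgG, had 119 and 131 CPM in vehicle and 14.5 and 19.9 CPM after both (-2.86 ± 0.11, adjusted p = 3.8e-11), with 15.9 and 14.2 CPM after MSDC alone. Fcgr4, an activating receptor, went from 28.7 and 25.3 CPM to 111 and 128 CPM (2.15 ± 0.09), above both MSDC alone (74.1 and 81.6 CPM) and Poly(I:C) alone (59.2 and 63.9 CPM). Fcgr1, the high-affinity receptor, ended at 56.6 and 67.1 CPM from 23.7 and 22.4 CPM (1.42 ± 0.11), between 9.53 and 12.8 CPM after MSDC alone and 117 and 118 CPM after Poly(I:C) alone. Fcgr3 fell by 0.89 ± 0.06. Of the 6 Fc receptor genes 3 were above and 3 below vehicle. Each share was 50%, against 15.2% above and 12.8% below among all genes.

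Below vehicle, the 12 largest falls among called genes with at least 5 CPM in the higher group, no overlap between the groups, predicted gene models left out, were Arl4c, Nfe2, Rnase2a, Cd244a, Fcgr2b, Irf4, Dgkg, Irgc1, Qpct, Tns4, Kcnn4 and Tyro3, with log2 fold changes of -3.72 to -2.54. Arl4c, a small GTPase, had 15.7 and 15.7 CPM in vehicle, 1.39 and 0.978 CPM after both and 1.03 and 1.15 CPM after MSDC alone (-3.72 ± 0.19, adjusted p = 3.75e-10). Qpct, which cyclizes the ends of proteins such as chemokines, went from 70.6 and 66.7 CPM to 11.3 and 10.9 CPM (-2.62 ± 0.10). Kcnn4, a calcium-gated potassium channel, went from 14.5 and 14.5 CPM to 2.33 and 2.51 CPM (-2.58 ± 0.17), and the receptor kinase Tyro3 from 7.75 and 9.54 CPM to 1.46 and 1.5 CPM (-2.54 ± 0.19). Each of these 4 was also lower after MSDC alone, by 2.74 to 3.84.

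Genes of alternative activation, the programme that interleukin 4 induces, were mostly below vehicle. The share below was 63.6%, against 12.8% of all genes, and the share above 9.09%, against 15.2%. Of 11 tested 7 were below, 3 undetermined and 1, Mrc1, above (0.30), a call lost without the second combined library. Irf4, a transcription factor of that programme, had 37.9 and 30.6 CPM in vehicle, 4.31 and 5.2 CPM after both, 4.58 and 4.90 CPM after MSDC alone and 35.1 and 33.6 CPM after Poly(I:C) alone (-2.85 ± 0.13, adjusted p = 1.8e-10). Ccl17, a chemokine that attracts T helper 2 cells, went from 447 and 505 CPM to 99.1 and 84.5 CPM (-2.38 ± 0.09). Chil3, a chitinase-like protein abundant in these cells, went from 6366 and 6601 CPM to 3308 and 3516 CPM (-0.93 ± 0.05). Socs2, a feedback inhibitor of cytokine signals, fell by 1.07 ± 0.09. Among costimulatory and inhibitory checkpoint molecules of T cell activation, Vsir fell by 1.61 ± 0.07, Cd80 by 1.00 ± 0.13 and Havcr2 by 0.61 ± 0.07. Of the 8 tested in that list 3 were below, 1 was at the vehicle level and 3 were undetermined. Below were 37.5%, against 12.8% of all genes, and the 12.5% above were close to the 15.2% of all genes. The 1 above, Cd274, rose by 0.27 ± 0.08 (adjusted p = 0.0183), a call lost without the second vehicle library (0.17), without either combined library and with scaling by library totals.

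Chemokines split in direction, with 46.7% above vehicle and 40% below, against 15.2% and 12.8% of all genes. Of 15 tested 7 were above vehicle, 6 below, 1 at the vehicle level and 1 undetermined, with a median of 0.16 beside -0.60 after MSDC alone and 1.2 after Poly(I:C) alone. Cxcl10, which attracts T cells and is driven by interferon, had 0.136 and 0.231 CPM in vehicle and 6.68 and 6.57 CPM after both (5.14 ± 0.49, adjusted p = 6.63e-07). Ccl5, another T cell attractant, went from 0.578 and 0.264 CPM to 5.50 and 4.78 CPM (3.60 ± 0.33), with 14.3 and 15.1 CPM after Poly(I:C) alone. Ccl2, the main attractant of monocytes, had 16.7 and 14.2 CPM in vehicle, 76.7 and 75.9 CPM after Poly(I:C) alone and 1.07 and 2.40 CPM after MSDC alone. It ended at 5.29 and 5.20 CPM after both, below vehicle (-1.55 ± 0.17, adjusted p = 2.52e-06). Ccl3, an inflammatory chemokine, ended at 149 and 144 CPM from 366 and 316 CPM (-1.21 ± 0.08), although Poly(I:C) alone gave 421 and 468 CPM. So Ccl2 and Ccl3 were above vehicle after Poly(I:C) alone and below it after both.

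Among cytokines and mediators, 6 of 13 tested were above vehicle, 1 below, 2 at the vehicle level and 4 undetermined. The shares above and below were 46.2% and 7.69%, against 15.2% and 12.8% of all genes. Acod1, which makes itaconate from a citric acid cycle intermediate, had 5.03 and 5.32 CPM in vehicle, 21.0 and 19.6 CPM after both and 79.1 and 68.4 CPM after Poly(I:C) alone (net 1.97 ± 0.12, adjusted p = 2.61e-09). Tnfsf10, the death ligand TRAIL, went from 1.12 and 0.561 CPM to 6.47 and 5.62 CPM (2.84 ± 0.26). Il18, a cytokine that inflammasomes release, had 82.3 and 84.6 CPM in vehicle and 138 and 126 CPM after both (0.66 ± 0.07), and was higher after MSDC alone (137 and 144 CPM) and lower after Poly(I:C) alone (67.7 and 67.4 CPM). Il1rn, the antagonist of interleukin 1, rose by 0.43 ± 0.09, and Osm fell by 1.2 ± 0.22. Of 11 inflammasome genes 8 were above and 2, Nlrp3 and Pycard, below (-0.60 and -0.22), with 1 below when the second vehicle library or the first combined library was left out. Of the inflammasome list 72.7% were above and 18.2% below, against 15.2% and 12.8% of all genes. The sensor gene Nlrc4 and its partner Naip2 rose by 0.89 ± 0.12 and 0.56 ± 0.06.

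**Figure D3:**
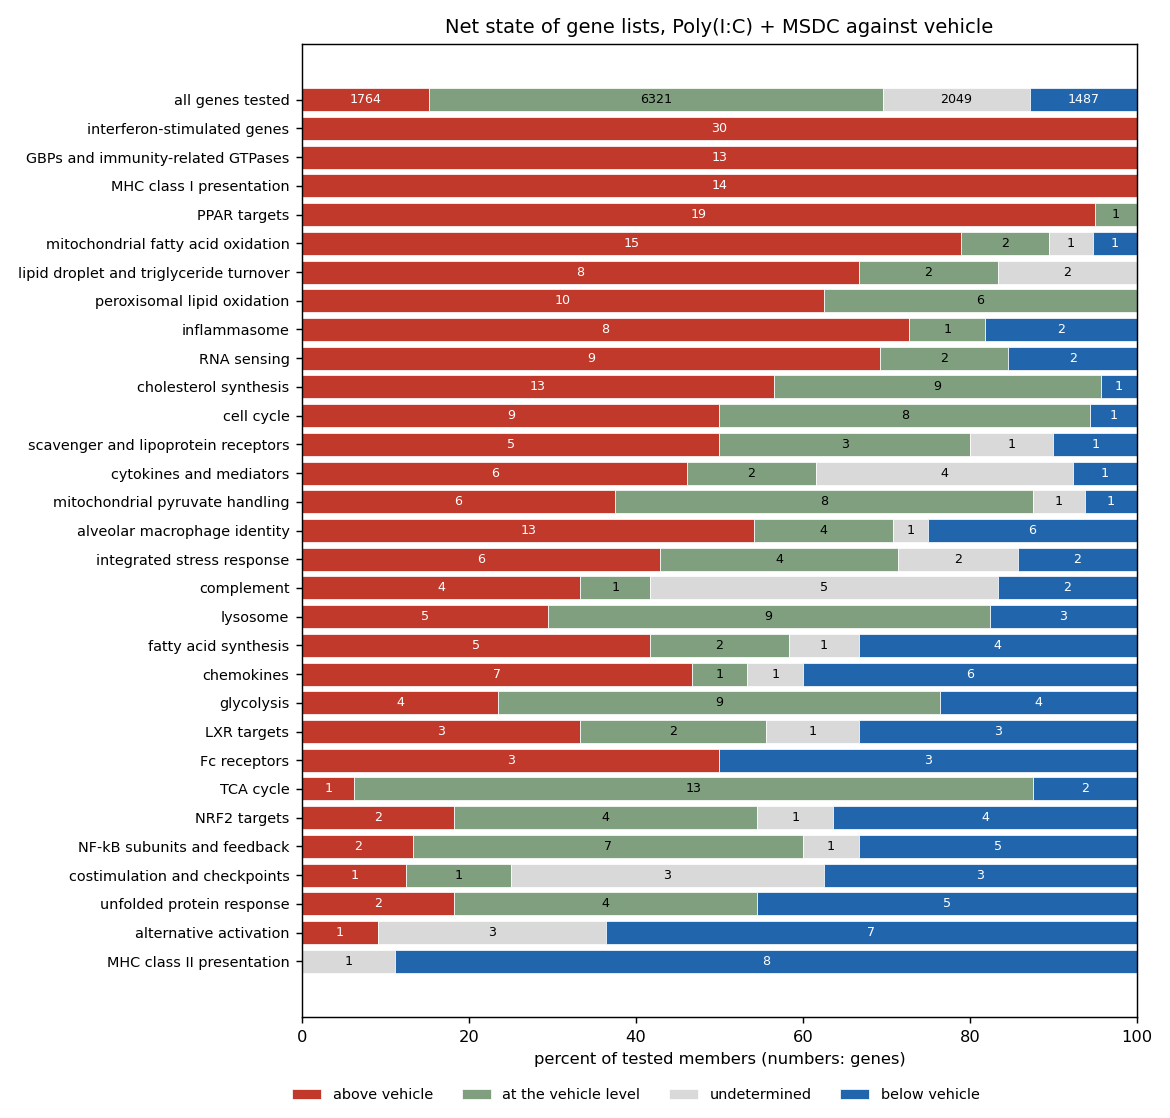
Percent of the tested members of each gene list that were above (red), at (green), undetermined against (grey) or below (blue) the vehicle level after both treatments, with the number of genes written in each bar and all 11621 genes tested in the top bar. Interferon-stimulated genes, GTPases and MHC class I genes (30, 13 and 14) were all above, and MHC class II genes (8 of 9) were mostly below.

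**Figure D4:**
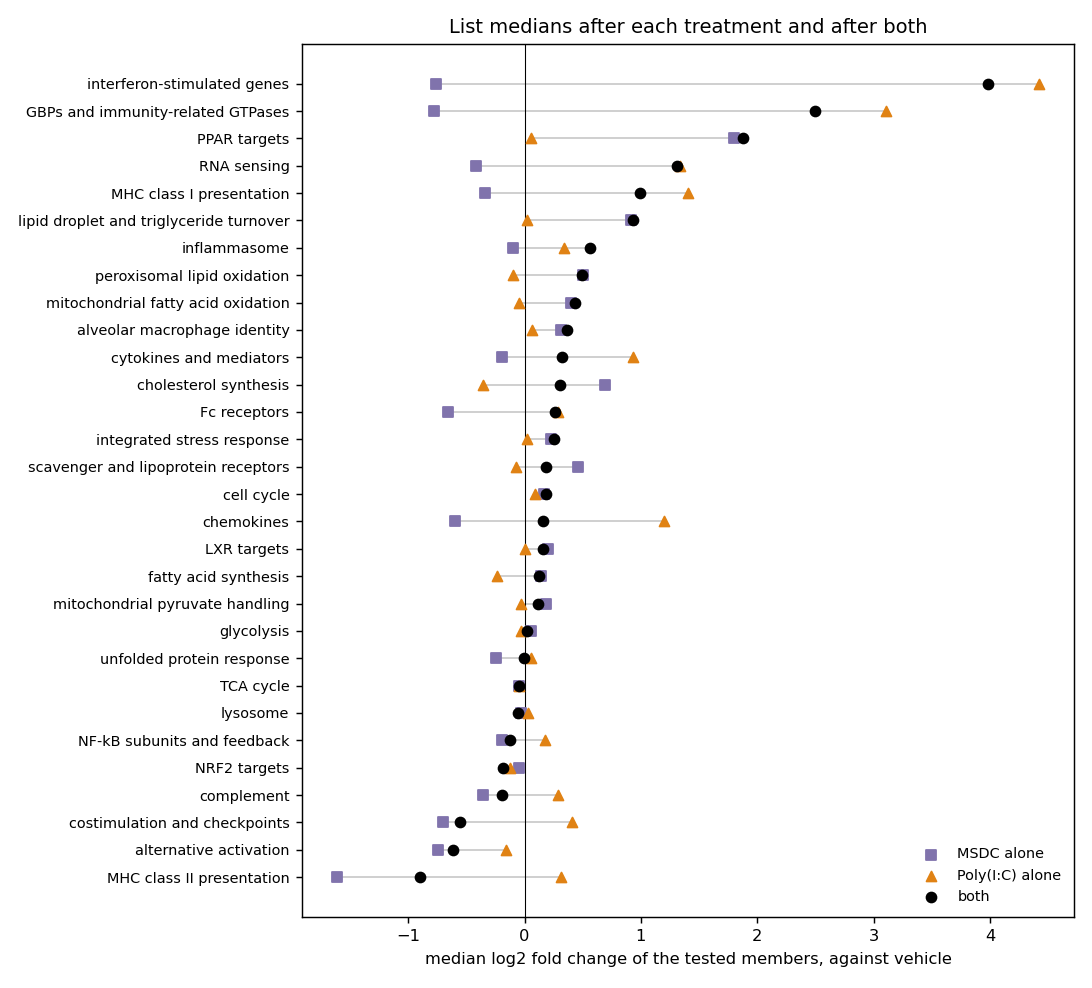
Median log2 fold change against vehicle of the tested members of each list after MSDC alone (squares), Poly(I:C) alone (triangles) and both (circles), with the 3 comparisons sharing their vehicle libraries. The circle lies near the triangle for RNA sensing (1.31 and 1.34), near the square for PPAR targets (1.88 and 1.80), and between them for MHC class II genes (-0.90) and chemokines (0.16), with interferon-stimulated genes drawn at 3.98, before bounds.

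Some genes that a single treatment had moved were at the vehicle level after both. A gene was counted as back after a Poly(I:C) response when it was at the vehicle level, was called in Poly(I:C) alone against vehicle, and was called in the opposite direction in both treatments against Poly(I:C) alone. There were 233 such genes (2% of those tested), 111 that Poly(I:C) alone had raised and 122 that it had lowered. Back after an MSDC response, by the same rule with MSDC in place of Poly(I:C), were 84 genes (0.723%), 31 raised and 53 lowered by MSDC alone. Leaving out 1 library moved these counts by over 1.5 times: 127 genes were back after Poly(I:C) without the first Poly(I:C) library. Back after MSDC were 32 and 34 genes without the first and second MSDC library, 43 and 49 without the first and second combined library, and 131 without the second vehicle library. Both rules held for 55 genes. Of all genes tested, 7.52% were called higher and 4.1% lower after Poly(I:C) alone, and 11.1% and 12.4% after MSDC alone. Both treatments against Poly(I:C) alone gave 12.5% higher and 13.6% lower, and against MSDC alone 4.82% and 1.5%. These comparisons share libraries, so the counts describe the data and carry no test, and a gene within 1.5-fold of vehicle can still differ from it by less than that.

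Tnf, the central inflammatory cytokine, was back after Poly(I:C). Its levels were 15.8 and 14.8 CPM in vehicle, 24.2 and 24.5 CPM after Poly(I:C) alone, 15.0 and 15.6 CPM after MSDC alone and 16.3 and 15.6 CPM after both. The net change was 0.06 (95% interval -0.15 to 0.27), and Tnf stayed back in all 13 other fits tried (other scalings, no filter, DESeq2, the replicate block and leaving out each library). With a narrower width of 1.2-fold (0.263 on the log2 scale), Prr5l, described below, was still at the vehicle level. Tnf, Il1b, Ddit3, Procr, Xdh, Cysltr1, Ifi27, Asb13, H2-M3, Clec9a, Nod2 and Ift43 were not. Il1b, the precursor of interleukin 1β, had 4.45 and 3.96 CPM in vehicle, 12.3 and 11.3 CPM after Poly(I:C) alone and 3.34 and 4.89 CPM after both, a net change of -0.03 (95% interval -0.46 to 0.40). It stayed back in 10 of 13 fits and was lost without the second vehicle library or without either combined library. Ddit3, the stress factor CHOP, and Procr, the endothelial protein C receptor, were back as well, from 19.4 and 21.0 CPM and from 22.7 and 22.5 CPM with Poly(I:C) alone to net changes of 0.18 and 0.17.

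Several of these genes were moved in opposite directions by the single treatments. Xdh, which encodes xanthine oxidoreductase, had 53.7 and 48.4 CPM in vehicle, 28.4 and 26.3 CPM after MSDC alone, 100.5 and 102 CPM after Poly(I:C) alone and 52.0 and 60.1 CPM after both (net 0.13, 95% interval -0.04 to 0.31). Prr5l, which binds the kinase complex mTORC2, had 28.7 and 30.2 CPM in vehicle, 12.9 and 14.9 CPM after MSDC alone, 51.5 and 50 CPM after Poly(I:C) alone and 31.2 and 30.2 CPM after both (net 0.06, 95% interval -0.13 to 0.24). Xdh and Prr5l stayed back by both rules in all 13 fits. The leukotriene receptor gene Cysltr1 had 7.75 and 7.00 CPM in vehicle, 2.51 and 2.47 CPM after MSDC alone, 15.4 and 18.7 CPM after Poly(I:C) alone and 8.73 and 8.80 CPM after both. Its combined libraries did not overlap the vehicle libraries, its net change was 0.25 (95% interval -0.04 to 0.54), and it stayed back in 9 of 13 fits.

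A different pattern was seen in Ifi27, an interferon-inducible mitochondrial protein. Each treatment alone lowered it, from 39.0 and 28.3 CPM in vehicle to 17.7 and 20.4 CPM with MSDC and 20.6 and 16.5 CPM with Poly(I:C), and after both it had 38.4 and 38.5 CPM. Its net change was 0.19 (95% interval -0.09 to 0.48). The vehicle libraries differed from each other, and without the first of them Ifi27 was above vehicle (0.44, adjusted p = 0.00828). Asb13 and H2-M3 were back by both rules from the same opposed pattern as Xdh, with net changes of 0.30 and 0.31. Their 95% intervals, 0.0325 to 0.5756 and 0.045 to 0.5693, lay above 0. Both genes therefore leaned above vehicle and met the rule through the 1.5-fold width, without being called. By the Poly(I:C) and MSDC rules Asb13 stayed back in 9 and 7 of the 13 fits and H2-M3 in 10 and 9. The dendritic cell receptor gene Clec9a and the peptidoglycan sensor gene Nod2 were back at -0.08 and -0.19, and Ift43 at -0.02, with Nod2 and Ift43 below 10 CPM and back by the MSDC rule in only 5 and 7 of 13 fits.

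**Figure D5:**
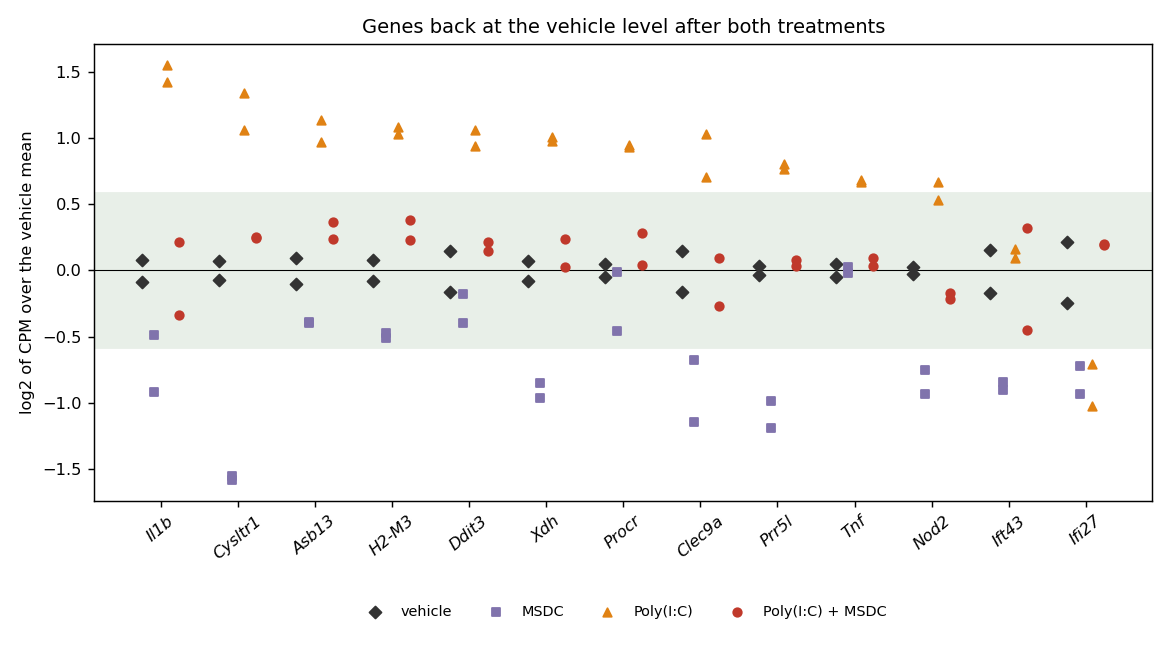
Log2 of the CPM in each of the 8 libraries over the vehicle mean for 13 genes at the vehicle level after both treatments, with the shaded band marking 1.5-fold in either direction. Red circles (both treatments) lie within the band for every gene. Triangles (Poly(I:C) alone) lie above it for genes that include Il1b, Cysltr1, Xdh, Ddit3, Prr5l and, narrowly, Tnf, and below it for Ifi27.

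Cholesterol synthesis was the list with the most genes back after MSDC among those described. Its median was -0.36 after Poly(I:C) alone, 0.69 after MSDC alone and 0.31 after both. Of 23 tested genes 13 were above vehicle, 9 at the vehicle level and 1, Mvd, below (-0.47). Above were 56.5%, against 15.2% of all genes, and at the vehicle level 39.1%, against 54.4%. Hmgcs1, the first committed enzyme, had 69.0 and 64.2 CPM in vehicle and 156 and 173 CPM after both (1.30 ± 0.08, adjusted p = 2.43e-09). Sc5d went from 26.3 and 24.5 CPM to 31.0 and 31.9 CPM (0.31 ± 0.08, adjusted p = 0.0108), with 14.8 and 15.6 CPM after Poly(I:C) alone. This call was lost without the second vehicle library (adjusted p = 0.0607 by edgeR) and without the second combined library (0.0943). Another 5 were back by both rules, among them Sqle, Msmo1, Srebf2 and Stard4, and Nsdhl was back after MSDC only. Sqle, a rate-setting oxidase, had 44.7 and 43.8 CPM in vehicle, 25 and 29.4 CPM after Poly(I:C) alone, 73.3 and 71.0 CPM after MSDC alone and 51.5 and 49.1 CPM after both. Srebf2, the transcription factor of the pathway, had 199.7 and 192 CPM in vehicle and 211 and 202 CPM after both.

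The promoter of Hmgcs1 is shown because it was the highest member and held the letters TCACNCCAC, to which sterol-regulated factors are known to bind (RefSeq GRCm38.p6, 100 bases, match in capitals).
Hmgcs1 (chr13:119690194-119690293, plus strand): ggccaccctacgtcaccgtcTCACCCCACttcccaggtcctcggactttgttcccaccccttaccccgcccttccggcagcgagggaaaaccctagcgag

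These letters, searched on both strands, were within 250 bases upstream of the start in 1 of 16 cholesterol genes with a promoter and in 1.13% of all tested genes. The direct repeat that PPAR receptors are known to bind, searched on both strands as AGGNCA, any base and AGGNCA, was found in 1 of 12 PPAR targets with a promoter and in 0.288% of all tested genes.

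Fatty acid synthesis and the genes controlled by the oxysterol receptor LXR were split. Of 12 tested fatty acid synthesis genes 5 were above, 4 below, 2 at the vehicle level and 1 undetermined. The shares above and below were 41.7% and 33.3%, against 15.2% and 12.8% of all genes. In all 12 the first vehicle library was higher than the second, with a median log2 ratio of 0.23 against 0.00 over all genes, and the part of this in the calls was not tested. Without the first vehicle library 5 were above and 3 below, and without the second combined library 3 were above. Elovl6, which elongates palmitate, went from 31.8 and 29.9 CPM to 9.19 and 9.81 CPM (-1.70 ± 0.10, adjusted p = 3.84e-09), whereas Me1, a source of NADPH, rose from 1.39 and 1.16 CPM to 4.14 and 4.40 CPM (1.74 ± 0.24). Scd1, the stearoyl desaturase, went from 125 and 100.2 CPM to 80.1 and 80.4 CPM (-0.49 ± 0.09), and was at -0.32 when the first vehicle library was left out. Of 9 LXR targets 3 were above, led by Lpcat3 (0.78 ± 0.07), and 3 below, including the cholesterol exporter Abca1 (-0.68 ± 0.14). Each share was 33.3%, against 15.2% above and 12.8% below among all genes.

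Citric acid cycle genes were mostly at the vehicle level. Of 16 tested citric acid cycle genes 13 were at the vehicle level, where 54.4% of all genes were, with 1 above (Suclg2, 0.50 ± 0.09) and 2 below (Idh3g and Sdhd, -0.24 and -0.22). The calls below numbered 4 without the first vehicle library and 1 without the first combined library, and Idh3g and Sdhd were each lost in some settings. Of 17 glycolysis genes 9 (52.9%) were at the vehicle level, close to the 54.4% of all genes, with 4 above and 4 below. Over the other settings the calls above numbered 1 to 4, with 1 without the second combined library, and the calls below 2 to 6, with 2 without the first. Slc2a1, the glucose transporter, fell from 111 and 115 CPM to 67.2 and 83.3 CPM (-0.59 ± 0.09), with 101 and 94.7 CPM after MSDC alone and 115 and 113 CPM after Poly(I:C) alone. Ldha, lactate dehydrogenase, rose from 671 and 710 CPM to 933 and 984 CPM (0.47 ± 0.06). Of 17 lysosome genes 9 (52.9%) were at the vehicle level, also close to the share of all genes, with 5 above and 3 below. The calls below numbered 1 without the first combined library and 6 with scaling by library totals. Npc2, a lysosomal cholesterol carrier, rose from 560 and 586 CPM to 834 and 910 CPM (0.61 ± 0.06). Cell cycle genes were above vehicle in 50% and at its level in 44.4%, against 15.2% and 54.4% of all genes. Of 18 cell cycle genes 9 were above, 8 at the vehicle level and 1 below, with called changes from -0.24 to 0.59, and the number above ran from 5, without the second combined library, to 11 over the other settings.

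Stress and NF-κB genes were called in both directions, in part at shares near those of all genes. Above vehicle were 42.9% of integrated stress response genes, against 15.2% of all genes. The share above was 18.2% both for targets of the oxidant-response factor NRF2 and for unfolded protein response genes, close to that 15.2%. Below vehicle were 14.3%, 36.4% and 45.5% of these 3 lists in the same order, against 12.8% of all genes, so the first was close to it. Of 15 NF-κB genes 7, among them the subunits Nfkb1, Rela and Rel, were at the vehicle level, 2 were above, 5 below and 1 undetermined. The shares at the vehicle level and above, 46.7% and 13.3%, were close to the 54.4% and 15.2% of all genes. The share below was 33.3% against 12.8%, but only 3 were below without the first vehicle library, and 1 was above without the second vehicle library or either combined library. Nfkbia, the inhibitor IκBα, rose by 0.44 ± 0.09, and Nfkbie, a related inhibitor, fell by 0.88 ± 0.10. Of 14 genes of the integrated stress response 6 were above and 2 below, with 1 below when the second vehicle library or either combined library was left out. Gdf15, a secreted stress hormone, went from 28.5 and 29.8 CPM to 72.8 and 78.9 CPM (1.38 ± 0.08, adjusted p = 1.59e-09), whereas Slc7a11, the cystine importer, went from 169 and 125 CPM to 64.6 and 57.9 CPM (-1.26 ± 0.11). Of 11 targets of the oxidant-response factor NRF2 2 were above and 4 below, with Gstm1 at -0.93 ± 0.07, and 1 was above without any 1 of the libraries given a single treatment. Of 11 unfolded protein response genes 2 were above, 5 below and 4 at the vehicle level, and the calls below ran from 2 to 5 over the other settings, with 3 without the second vehicle library and 2 without the first combined library.

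The alveolar macrophage label was checked against its markers. Siglecf, the surface lectin that defines these cells, had 325 and 321 CPM in vehicle and 300.3 and 309 CPM after both and was at the vehicle level (-0.08, 95% interval -0.20 to 0.04). Of 24 tested identity genes 13 were above vehicle, 6 below, 4 at the vehicle level and 1 undetermined. The shares above and below were 54.2% and 25%, against 15.2% and 12.8% of all genes. The 6 below were Bhlhe40 (-1.09), Chil3 (-0.93), Pparg (-0.64), Itgax (-0.29), Csf2rb (-0.22) and Car4 (-0.19). The ribonuclease gene Ear1 went from 38.8 and 40.4 CPM to 703 and 718 CPM (4.17 ± 0.07, adjusted p = 6.18e-15), Krt79, a keratin gene, from 5.88 and 7.17 CPM to 129 and 123 CPM (4.27 ± 0.10) and Marco, a scavenger receptor, from 316 and 400 CPM to 866 and 880 CPM (1.29 ± 0.09). Ear1 and Ear2 are near-identical copies. The list holds 4 genes that are also PPAR targets and above vehicle, Fabp1, Fabp4, Cidec and Lpl.

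Markers of other cell types were low where the deposited data gave them. Given were 2 of 6 markers of NK cells, 2 of 7 of mast cells and eosinophils, and 3 of 7 of neutrophils. The data gave 5 of 7 for T cells, 5 of 6 for B cells, 5 of 6 for airway cells and 6 of 7 for monocytes and interstitial macrophages. Absent genes, among them Ncr1, Gzma, Cpa3, Ly6g, S100a9 and Cd8a, could not be judged. Cd3d, Cd3e and Cd3g of T cells, the B cell list and the surfactant genes Sftpc, Sftpb and Sftpa1 of alveolar type 2 cells had at most 3 counts in a library. The summed level of 6 monocyte and interstitial macrophage markers was 22.2 to 22.5 TPM in vehicle and 7.43 to 8.93 TPM after both. Most of it came from Cd14, at 20.19 and 20.05 TPM in vehicle and 6.25 and 8.28 TPM after both. Ccr2, at 2.16 and 2.01 TPM in vehicle, and Cd14 were below vehicle (-1.68 ± 0.31 and -1.44 ± 0.13). The monocyte and interstitial macrophage list moved in the same direction as the MHC class II genes, Ccl2 and Fcgr2b. Its part in those results was not tested. The summed airway markers were 4.03 to 4.04 TPM in vehicle and 1.52 to 2.21 TPM after both, with Bpifa1 below vehicle (-1.62 ± 0.52) from 0.917 and 0.925 CPM, a call lost without any 1 of the 4 libraries compared. The T cell list was 4.32 to 4.55 TPM in vehicle and 8.77 to 10.2 TPM after both. Nearly all of it came from its 1 tested member, the adaptor gene Lat, which rose by 1.14 ± 0.18. Lat had 4.2 and 4.48 TPM in vehicle and 10.01 and 8.77 TPM after both. The neutrophil markers were 25.6 to 32.6 and 32.1 to 42.1 TPM, mostly from S100a8, which was undetermined (0.43). The type 2 cell list was 30.8 to 36.2 and 32.1 to 32.2 TPM, which came mostly from Abca3, at the vehicle level (-0.04). The fibroblast and endothelial list was 1.35 to 1.61 and 0.75 to 0.98 TPM, the B cell, NK cell and mast cell lists were at most 0.16 TPM in vehicle or after both, and whether any of these lists bears on the results was not tested.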

How the data were processed

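Alveolar macrophage RNA was sequenced in bulk in 8 libraries, 2 in each of 4 groups. The deposited table gives read counts per gene and library, named so per the file headers, that are partly not whole (5.95 to 7.19% of values) and were treated as estimated counts and rounded. It also gives FPKM values, deposited beside them and not used here, and TPM values, per the file headers scaled to gene length and depth, which were used only for summed marker levels. GRCm38 (mm10) is the build in the submitters' processing notes, which also list Bowtie2 2.3.4, TopHat2 2.1.1 and Cuffdiff. Which tool made which column was not given in the sources used here.

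Of 15521 genes 15419 (99.3%) matched RefSeq GRCm38.p6 by identifier, and 23 symbols turned into dates were repaired. In 1 model of the 4 groups, edgeR 4.0.16 (R 4.3.3) used filterByExpr, TMM factors (0.985 to 1.027) and quasi-likelihood tests, two-sided, adjusted by Benjamini-Hochberg over 11621 genes, with 4 residual degrees of freedom and a common dispersion of 0.00383. Standard errors were derived from the F statistic. CPM values are scaled by TMM. A floor of 3 counts is 0.102 to 0.104 CPM, and counting intervals cover counting error only. Replicate libraries differed beyond sampling noise (chi-square per degree of freedom 14.7 for vehicle, 6.3 for the combined group). The script was tested on simulated counts. Alternatives were other scalings, no filter, DESeq2 1.42.0, the 4 libraries alone, a replicate block, other widths of the vehicle level and leaving out each library. Where 1 library was left in a group, it was assumed to vary like the other groups.

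Genes named were the 12 largest rises and falls at 5 CPM or more without overlap and outside predicted models, 8 genes per set back at the vehicle level, up to 4 members of each list with the smallest p, and a fixed set. Other genes named (among them Irf7, Apol9b, Iigp1, Ifi44, Tlr3, Mavs, Irf3, Ticam1, B2m, Sqle, Srebf2, Abca1 and further members given by state) were chosen after their values were seen. Some genes that this rule names are not reported here. The comparison and the lists were chosen with earlier results of these data known. Near-identical genes are uncertain because their reads may be split.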

Additional observations from a re-analysis of the deposited data

How the results depend on the processing

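Over the settings that left out 1 library, genes above vehicle numbered 1226 to 1770, genes below 1089 to 1586 and genes at the vehicle level 5793 to 6501. Genes back after Poly(I:C) numbered 127 to 295, with 127 without the first Poly(I:C) library. Genes back after MSDC numbered 32 to 131. There were 131 without the second vehicle library, 32 and 34 without the first and second MSDC library, and 43 and 49 without the first and second combined library, so this count rests on single libraries. With no filter on low counts 131 genes were back after MSDC, 80 of them among the 84. With a width of 1.2-fold, 2309 genes were at the vehicle level, 119 back after Poly(I:C) and 44 back after MSDC. Over the other settings genes above ran from 1435 to 1906 and genes below from 1372 to 1928. None of the 141 called genes among the 164 named and tested changed direction, while 5 uncalled ones (Il1b, Clec9a, Abca3, Ift43 and Ifi27) changed sign in 8 values when a vehicle or combined library was left out. Of 2294 values under other settings 2268 kept their side of the threshold. Calls of Cd274, Idh3g, Ctsd, Bpifa1, Sc5d, Sdhd, Sdf2l1 or Pfkl were lost in 18 values. The 2049 undetermined genes had a median of 1.33 CPM, and what part depth or replicate spread had in this was not tested.

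The replicate numbers showed no pairing of the libraries over all genes tested. Deviations of same-numbered libraries correlated at -0.03 to 0.072, and the labels give the numbers no meaning. Such correlations take in the noise of every gene, so they cannot exclude a shared animal or batch. With the replicate block 1722 genes were above, 1438 below, 6390 at the vehicle level, 214 back after Poly(I:C) and 77 back after MSDC.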
